A study of Homo sapiens with 6 samples.

Results

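The enzymes that build, lengthen and desaturate fatty acids were followed as 10 listed genes: ACLY, ACSS2, ACACA, FASN, ELOVL5, ELOVL6, SCD, FADS1, FADS2 and FADS3. They are 10 of the 26967 genes named in the deposited table, and 10 of the 15173 genes tested. The value of a gene is the sum of all its RefSeq transcripts, in normalized counts, which are read counts divided by a scaling factor for each library. The cells were UWB1.289, an established human ovarian carcinoma line without functional BRCA1. Both arms had lentiviral delivery of a short hairpin with polybrene at 10 µg/mL, puromycin at 1 to 3 µg/mL from 96 h on, and growth in DMEM/F-12. The arms were a control hairpin (shCTRL, 3 libraries) and a hairpin against HBO1 (shHBO1, 3 libraries), the acetyltransferase made by KAT7, each with libraries labelled REP1, REP2 and REP3. No source used here says how many hairpins were used or whether the libraries came from separate cultures. A p-value therefore covers the spread among these 6 libraries alone, and that spread may be technical.

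Fatty acid synthesis starts in the cytosol from acetyl-CoA, which ACLY makes from citrate and ACSS2 from acetate. ACACA carboxylates acetyl-CoA to malonyl-CoA, and FASN joins these units into palmitate. Enzymes of the ELOVL family lengthen the chain, SCD places the double bond that gives oleate and palmitoleate, and FADS1 and FADS2 add double bonds to polyunsaturated chains. Most of these genes are known targets of the sterol-sensitive SREBP transcription factors, and tumour cells often use the pathway to supply membranes.

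The libraries held 35940400 to 39908703 recovered reads, of which the 10 genes took 0.353% in shCTRL REP1 and 0.115% in shHBO1 REP3. KAT7 measured 3616, 3952 and 3554 normalized counts in shCTRL REP1, REP2 and REP3, and 1008, 872 and 784 in shHBO1. It was therefore at 27.9%, 22.1% and 22.0% of its control within the 3 numbers (log2 fold change −2.07, limma adjusted p = 0.00123). The REP3 libraries of both arms stood apart from the other libraries on the first principal component, which carried 44.4% of the variance. Of 13 markers of ovarian epithelial carcinoma, PAX8 measured 8001 to 11302 normalized counts, WT1 stayed between 0 and 26.2 normalized counts and EMX2 was at 0 in every library. The summed level of the 13 markers was 380907 to 411250 in the REP1 libraries and 330495 to 350656 in the REP3 libraries. Most of it came from listed genes other than PAX8, WT1 and EMX2. Adipocyte and hepatocyte markers, which would bring lipid enzymes of another cell type, summed to 234 to 310 and 713 to 1054 normalized counts per library. ADIPOQ, LEP and FABP4 of the adipocyte list and APOA2, TTR, CYP3A4 and FGB of the hepatocyte list were at 0 in every library, ALB stayed at 3.75 to 15.2, and SERPINA1 alone made up 703 to 1044 of the hepatocyte sum. Fibroblast and endothelial markers summed to 2287 to 2558 in REP1 and 1618 to 1820 in REP3, and leukocyte markers to 684 to 786 over all libraries. The part of these markers in the results was not tested.

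Sequence upstream of the start site is shown for 5 members that span the range of differences described here. SCD and FADS2 passed a test between the arms, ACSS2 differed most between libraries, and FADS3 and ELOVL6 differed little between the arms. Each is the longest stretch, within the 250 bases before a RefSeq start (RefSeq promoters, GRCh38.p14), that touches no exon of GENCODE release 29, written 5′ to 3′ on the strand of the gene. Capitals mark the CCAAT box (CCAAT) and the GC box (GGGCGG), on either strand.
SCD: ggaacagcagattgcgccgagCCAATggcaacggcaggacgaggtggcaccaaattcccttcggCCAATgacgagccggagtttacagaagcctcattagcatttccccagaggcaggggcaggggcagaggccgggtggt
FADS2: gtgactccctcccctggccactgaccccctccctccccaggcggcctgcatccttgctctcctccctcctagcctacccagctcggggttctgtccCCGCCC
ACSS2: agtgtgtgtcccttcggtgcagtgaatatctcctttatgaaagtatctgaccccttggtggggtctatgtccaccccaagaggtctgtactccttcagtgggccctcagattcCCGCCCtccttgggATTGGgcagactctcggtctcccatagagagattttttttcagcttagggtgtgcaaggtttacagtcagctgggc
FADS3: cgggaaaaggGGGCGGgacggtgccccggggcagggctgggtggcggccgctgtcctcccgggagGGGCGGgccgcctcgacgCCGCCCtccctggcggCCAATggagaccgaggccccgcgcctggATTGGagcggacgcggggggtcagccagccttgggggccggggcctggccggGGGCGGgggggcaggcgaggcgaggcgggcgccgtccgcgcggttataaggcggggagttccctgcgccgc
ELOVL6: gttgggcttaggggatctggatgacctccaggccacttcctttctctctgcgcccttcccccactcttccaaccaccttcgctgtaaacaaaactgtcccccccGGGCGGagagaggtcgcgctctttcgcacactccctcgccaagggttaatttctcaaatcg
The stretches lie at chr10:100346983-100347123 (plus strand) for SCD, chr11:61816154-61816255 (plus) for FADS2, chr20:34874739-34874941 (plus) for ACSS2, chr11:61891546-61891795 (minus) for FADS3 and chr4:110198677-110198841 (minus) for ELOVL6. The SCD stretch holds 2 CCAAT boxes, at bases −229 to −225 and −186 to −182 counted back from the start site. The stretches of SCD, FADS2, ACSS2 and ELOVL6 end at bases −110, −149, −48 and −62. FADS2 and ACSS2 had several RefSeq starts, and the stretch shown is the longest over them. The 250 bases before the other ACSS2 start held 3 GC boxes and 0 CCAAT boxes.

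RefSeq windows of 250 bases were matched for 9 of the 10 members, 14 windows in all. FASN had no window and was not searched. Of the 14 windows, 3 touched no exon, and the matches below are over whole windows. The CCAAT box was found for 6 of the 9 genes and the GC box for 8, against 32.0% and 42.6% of 35116 windows of all genes. The E-box CACGTG, a palindrome, was found for 1 of the 9 (ELOVL5) and in 6.34% of all windows. The sterol regulatory element form TCACNCCAC, searched on both strands, was found for 0 of the 9 and in 0.883% of all windows. Genes with several windows have more chances of a match, and GC boxes may overlap one another. The median share of G and C was 58.0% over all windows. Most member windows lay above it, in a range of 43.6% to 81.6%, and the matches were not adjusted for this. A match or its lack in these windows describes letters only.

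**Figure D1:**
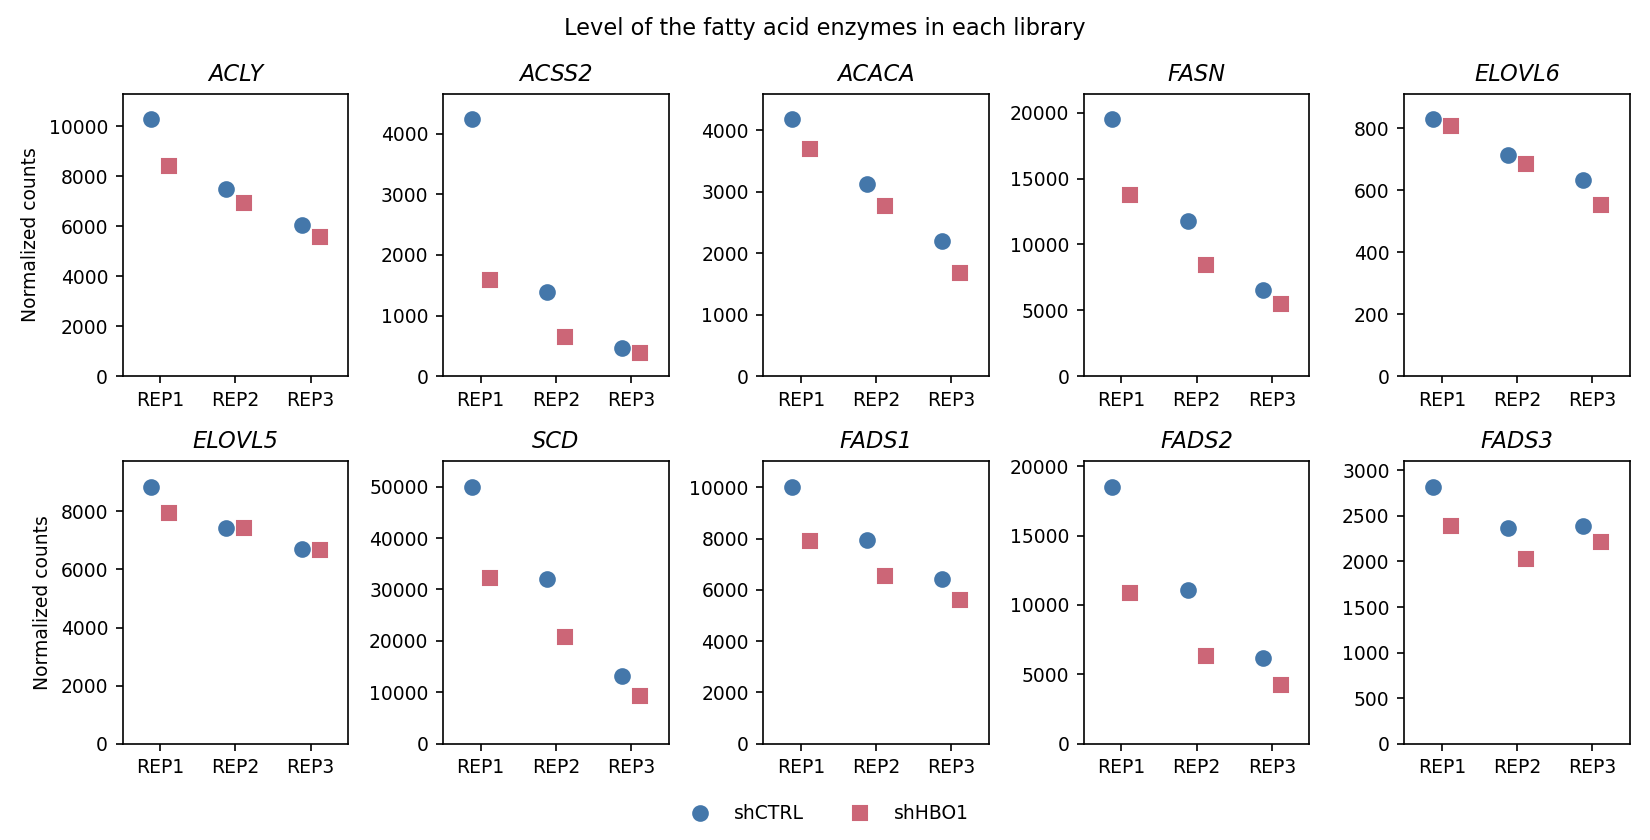
Normalized counts (linear axis from 0, a separate scale for each gene) of the 10 enzymes in each library, by replicate number, with circles for shCTRL and squares for shHBO1. The shCTRL REP1 library was the highest for all 10 genes (22.4% of all tested genes), and the shHBO1 value was below the shCTRL value within every number.

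All 10 genes were lower in shHBO1 than in shCTRL within each of the 3 replicate numbers, a pattern held by 17.1% of all tested genes. The median log2 difference of the 10 was −0.32 in REP1, −0.25 in REP2 and −0.23 in REP3, beside 0.0063, 0.00095 and −0.0097 over all tested genes. None of the 10 was called without regard to the number (0 of 10, where limma called 0.00659% of genes, KAT7 alone), and the 2 arms overlapped for all 10, where 8.93% of all tested genes did not overlap and 4.44% had every shHBO1 value below every shCTRL value. At an unadjusted p under 0.05, limma without a block had 538 genes and none of the 10. DESeq2 without a block called 19 genes at an adjusted p of at most 0.05, and none of the 10. With the replicate number as a block, SCD and FADS2 fell (2 of 10, where 0.125% of genes were called, 0.0395% as higher and 0.0857% as lower). Blocked edgeR gave the same shares and also called SCD and FADS2. Blocked DESeq2 called FADS1 and FASN besides (4 of 10, where 0.969% were called, 0.369% as higher and 0.6% as lower). Without the REP3 libraries, blocked limma called 8 of 10 as lower, all but ELOVL5 and ELOVL6, where 14.2% of genes were called, 7.28% as higher and 6.95% as lower; that fit has 2 pairs. Without REP3 and without the block it called 0 of 10, where it called 1 of the 15173 tested genes. Without the block, leaving out shCTRL REP1 or shHBO1 REP3 turned the estimates of several members above 0, among them ELOVL5 and ELOVL6 in both cases. In bulk RNA, fewer cells with a transcript and less of it per cell cannot be told apart, nor can the effects of the hairpin and of HBO1 loss.

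SCD, the stearoyl-CoA desaturase, measured 49983, 32120 and 13141 normalized counts in shCTRL REP1, REP2 and REP3. In shHBO1 it measured 32175, 20687 and 9322. The arms overlapped widely, because the control REP3 value lay below the knockdown REP1 and REP2 values. Within the numbers SCD stood at 64.4%, 64.4% and 70.9% of its control. The log2 fold change was −0.59 with either fit, with an SE of 0.56 without the block and 0.059 with it (blocked 95% confidence interval −0.72 to −0.45, blocked limma adjusted p = 0.0254). Without the REP3 libraries the blocked value was −0.64.

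FADS2, the desaturase that opens the conversion of linoleate to longer polyunsaturated chains, measured 18530, 11064 and 6156 in shCTRL and 10897, 6317 and 4216 in shHBO1 (REP1, REP2 and REP3). It stood at 58.8%, 57.1% and 68.5% of its control within the numbers, the lowest shares among the FADS genes. Its log2 fold change was −0.71 (blocked SE 0.066, blocked 95% confidence interval −0.86 to −0.56, blocked limma adjusted p = 0.0251). The 3 deposited FADS2 transcripts were all lower in shHBO1 than in shCTRL within every number. NM_001281501 measured 8031, 5321 and 3280 in shCTRL and 5419, 2955 and 2298 in shHBO1. NM_004265 measured 8609, 4525 and 2125 in shCTRL and 4802, 2539 and 1406 in shHBO1.

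FADS1, which acts after FADS2 on the way to arachidonic acid, measured 10031, 7939 and 6421 in shCTRL and 7895, 6527 and 5592 in shHBO1. Its shares of control within the numbers were 78.7%, 82.2% and 87.1%, closer to the control than those of FADS2. The log2 fold change was −0.28 (blocked SE 0.056), and it did not pass with the block in limma (adjusted p = 0.147), while blocked DESeq2 called it (adjusted p = 0.0128). The FADS1 and FADS2 loci overlap on opposite strands, and without strand, which no source used here states, reads from the shared part cannot be told apart. FADS3, the third gene of the cluster, acts on sphingoid bases. It measured 2820, 2362 and 2385 in shCTRL and 2388, 2026 and 2215 in shHBO1, and its log2 fold change of −0.19 did not pass (blocked limma adjusted p = 0.314).

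FASN, the multi-domain synthase that makes palmitate, measured 19513, 11748 and 6532 in shCTRL and 13774, 8440 and 5443 in shHBO1. It stood at 70.6%, 71.8% and 83.3% of its control. The log2 fold change of −0.41 (blocked SE 0.064) missed the threshold with the block (limma adjusted p = 0.0821), and blocked DESeq2 called it (adjusted p = 9.16e-06). ACACA, which supplies malonyl-CoA, measured 4180, 3133 and 2201 in shCTRL and 3691, 2775 and 1680 in shHBO1. Its largest difference was in REP3, at 76.3% of control, beside 88.3% in REP1 and 88.6% in REP2. The log2 fold change of ACACA was −0.25 (blocked limma adjusted p = 0.234).

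Among the suppliers of acetyl-CoA, ACSS2 had the widest spread of the 10 genes. It measured 4236, 1390 and 461 in shCTRL and 1586, 641 and 374 in shHBO1. It stood at 37.4% of control in REP1, 46.1% in REP2 and 81.1% in REP3, so that the arms were far apart in REP1 and close in REP3. Its log2 fold change was −0.94, with a blocked SE of 0.18 and a blocked limma adjusted p of 0.125. This was the largest estimate of the 10, but without shCTRL REP1 and without the block it was −0.14, smaller in size than those of FADS2 (−0.32) and SCD (−0.16). Without the REP3 libraries the blocked value was −1.27. ACLY, the citrate lyase, measured 10278, 7502 and 6035 in shCTRL and 8414, 6919 and 5570 in shHBO1, with a log2 fold change of −0.17 (blocked limma adjusted p = 0.334).

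The elongases had the smallest differences between the arms. ELOVL5, which lengthens polyunsaturated chains, measured 8852, 7420 and 6708 in shCTRL and 7962, 7417 and 6676 in shHBO1, so that the arms nearly coincided in REP2 and shHBO1 was at 99.5% of control in REP3. ELOVL6, which lengthens palmitate to stearate, measured 829, 712 and 631 in shCTRL and 806, 684 and 551 in shHBO1. Their log2 fold changes were −0.053 (blocked 95% confidence interval −0.19 to 0.079) and −0.097 (−0.29 to 0.092). Decreases larger than 0.29 on the log2 scale lay outside both blocked intervals, and those larger than 0.19 lay outside that of ELOVL5. Without the block the 95% confidence intervals were wider, −0.32 to 0.21 for ELOVL5 and −0.48 to 0.28 for ELOVL6, and both held decreases larger than 0.29.

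**Figure D2:**
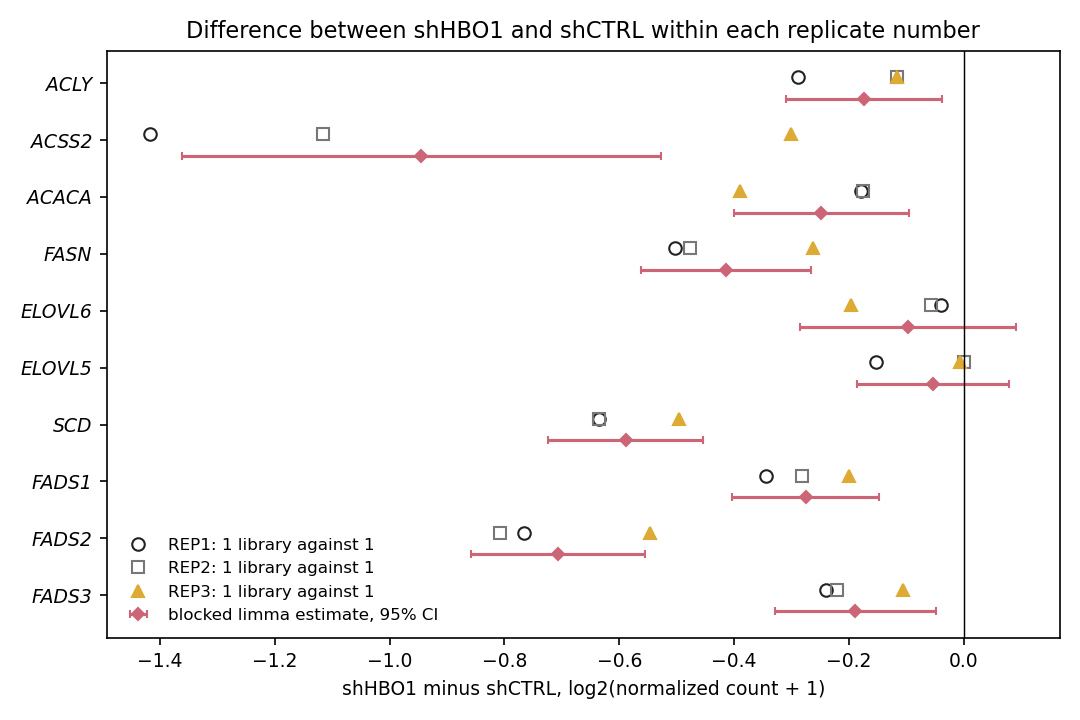
Log2 difference between shHBO1 and shCTRL for each enzyme within REP1, REP2 and REP3 (circles, squares and triangles, each 1 library against 1), with the blocked limma estimate and its 95% confidence interval as diamonds. SCD and FADS2 sit between −0.50 and −0.81 in every number, and ACSS2 spreads from −1.42 in REP1 to −0.30 in REP3.

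The second question was how the enzymes differed between the replicate numbers, which share no named day or batch in the labels. All 10 were lower in REP3 than in REP1 in both arms, as were 35.4% of all tested genes, and the median member differed by −0.86 beside 0.0031 over all tested genes. In the additive limma fit of arm and number, 9 of 10 fell between REP1 and REP3, where 14.5% of genes were called in either direction, 7.36% as higher and 7.18% as lower. FADS3 was the exception (−0.18, limma adjusted p = 0.145), and it passed without shHBO1 REP3 (−0.24, limma adjusted p = 0.0198). The fit rests on 2 libraries for each number and uses the same 6 libraries as the comparison between the arms. The count over all genes was 2205, and it became 503 without shCTRL REP1, 1160 without shCTRL REP2, 1135 without shHBO1 REP2 and 5782 without shHBO1 REP3.

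ACSS2 had the largest difference, with 9.18 times as many normalized counts in REP1 as in REP3 of shCTRL and 4.24 times in shHBO1 (log2 difference −2.64, SE 0.22, limma adjusted p = 0.000854). SCD followed, at 3.80 times in shCTRL and 3.45 times in shHBO1 (−1.86, SE 0.072, adjusted p = 3.73e-05 by limma). FADS2 (−1.48) and FASN (−1.46) had nearly the same size, with REP3 at 33.2% and 33.5% of REP1 in shCTRL and at 38.7% and 39.5% in shHBO1 (limma adjusted p = 0.000107 for each).

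Smaller differences between the numbers were found for the other members. The log2 difference was −1.03 for ACACA (limma adjusted p = 0.000619), −0.68 for ACLY (0.00213) and −0.57 for FADS1 (0.00343). ELOVL6 (−0.47, limma adjusted p = 0.0233) and ELOVL5 (−0.33, limma adjusted p = 0.0238) were near the threshold. Both lost the call without shCTRL REP1 (limma adjusted p = 0.123 and 0.311), without shCTRL REP2 (0.0567 and 0.0733) and without shHBO1 REP2 (0.0575 and 0.0739), and ELOVL6 also without shHBO1 REP1 (0.117).

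**Figure D3:**
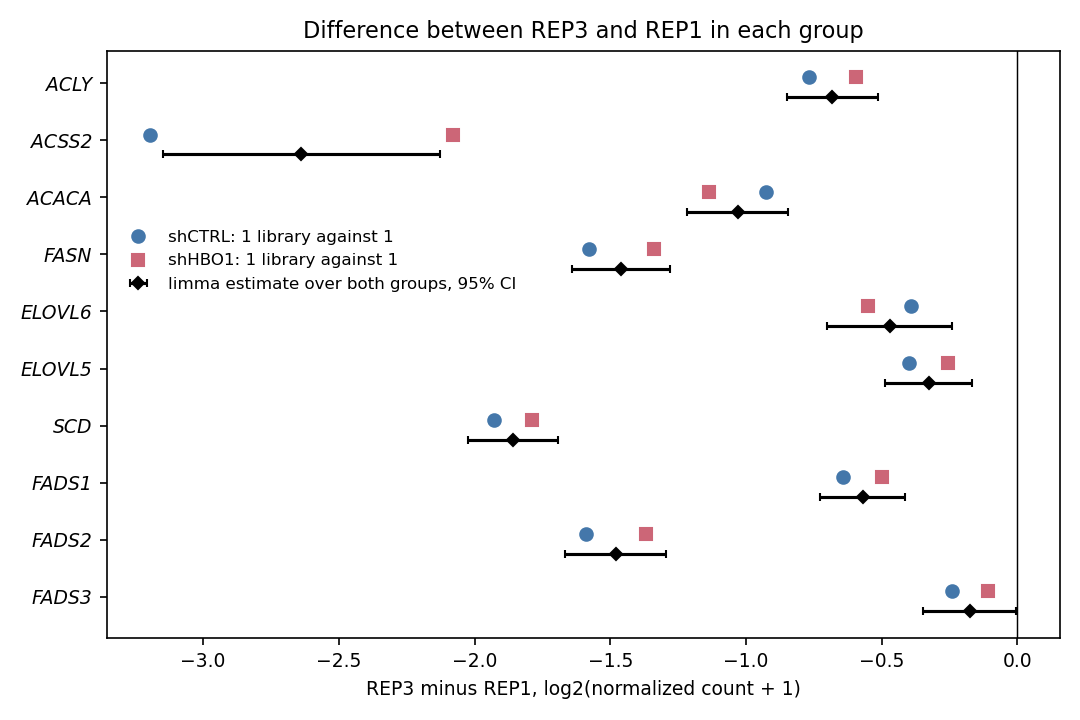
Log2 difference between REP3 and REP1 for each enzyme in shCTRL (circles) and shHBO1 (squares), each 1 library against 1, with the limma estimate over both arms and its 95% confidence interval as diamonds. All points lie below 0, from −3.20 for ACSS2 in shCTRL to −0.11 for FADS3 in shHBO1.

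The libraries ranked alike for most members. REP2 lay below REP1 and above REP3 in both arms for 9 of 10 (9.33% of all tested genes). The shHBO1 REP3 library was the lowest for 9 of 10 (16.9%), and for the same 9 shCTRL REP1 was also the highest (5.93%). For 7 of the 10 genes the order from high to low was shCTRL REP1, shHBO1 REP1, shCTRL REP2, shHBO1 REP2, shCTRL REP3 and shHBO1 REP3, an order found for 0.85% of all tested genes. FADS1 and FADS2 differed from it only in that shCTRL REP2 stood above shHBO1 REP1. FADS3 departed further, with its lowest value in shHBO1 REP2. Among non-member genes with a mean of at least 50, the 6 whose log2 profile over the 6 libraries lay nearest the median profile of the members were ERG28, SAP25, RAD9A, MMAB, LIPG and CUL7, at root mean square distances of 0.061 to 0.078 on the log2 scale. ERG28 belongs to sterol synthesis and LIPG is the endothelial lipase, while RAD9A belongs to the DNA damage checkpoint and CUL7 is a ubiquitin ligase scaffold. The members themselves lay at distances from 0.096 (ACLY) to 0.84 (ACSS2).

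Whether the difference between the arms itself varied with the number was tested with a term for shHBO1 in REP3, which compares the difference there with the mean of REP1 and REP2. For 7 of the 10 members the difference was smallest in REP3, a pattern that 7.76% of all tested genes showed with all 3 differences below 0. Since all 10 members were below 0 in every number, the closer background is 1177 of the 2601 genes that were. The test passed for ACSS2 (1 of 10, where 5.84% of genes were called, 2.61% as higher and 3.23% as lower), with an estimate of 0.97 (SE 0.14, limma adjusted p = 0.00115) from log2 differences of −1.42, −1.12 and −0.30 in REP1, REP2 and REP3. With quantile normalization 338 of 580 calls were higher, beside 396 of 886 here, and the ACSS2 call held. The call ended with no filter on low genes (limma adjusted p = 0.366; 0 genes called), where the estimate stayed at 0.97. It also ended on the most abundant transcript (limma adjusted p = 0.409; 0 genes called), where the estimate was 2.16. DESeq2 gave no adjusted p for ACSS2 in this test. FADS2 (0.24, limma adjusted p = 0.0821; 0.0395 with quantile normalization), FASN (0.23, 0.0941) and SCD (0.14, 0.279) did not pass, and ACACA (−0.21, 0.198) and ELOVL6 (−0.15, 0.609) had estimates of the other sign. The fit leaves 1 residual degree of freedom beside the spread borrowed from all genes. KAT7 was at 27.9% of control in REP1, 22.1% in REP2 and 22.0% in REP3. Whether its level bore on these differences was not tested.

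**Figure D4:**
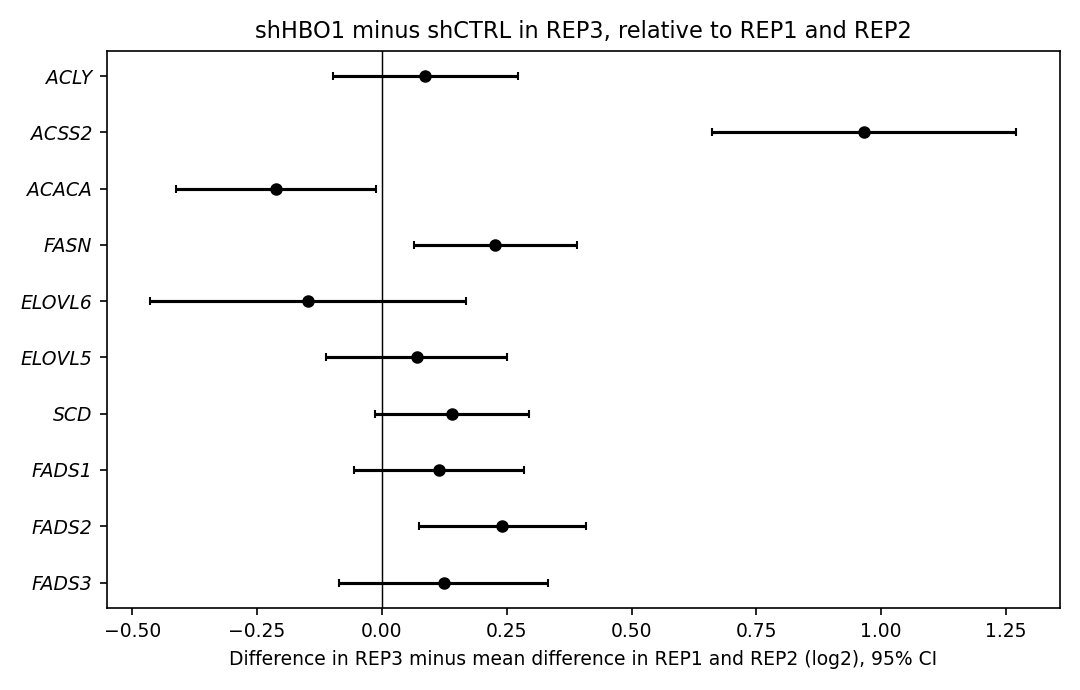
Difference between shHBO1 and shCTRL in REP3 minus its mean in REP1 and REP2 (log2 scale), with the 95% confidence interval of the limma fit, for each enzyme. ACSS2 stands at 0.97, and the other 9 estimates lie between −0.21 and 0.24.

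The deposited transcripts of some members changed in makeup from library to library. For ACSS2, NM_018677 measured 3973 normalized counts in shCTRL REP1, where NM_001242393 measured 1.02. In shCTRL REP2 the same transcripts measured 694 and 657, and in shCTRL REP3 178 and 279. For ACACA, NM_198834 measured 1954 and NM_198836 measured 686 in shHBO1 REP2, the reverse of the other 5 libraries, where NM_198836 was the higher. SCD, FADS1, FADS3 and FASN had a single deposited transcript each, and in ELOVL5 NM_021814 held 95.5% of the gene. No source used here says how reads were assigned to transcripts. On the most abundant transcript alone, the difference between REP3 and REP1 still passed for SCD (−1.86), FADS2 (−1.26) and FASN (−1.46), and the other 6 called members lost the call. Over all genes the calls went from 2205 to 48 there. The estimate of FADS1, which has a single transcript, stayed at −0.57, and that of ACSS2 was −3.09 beside −2.64 for the whole gene.

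**Figure D5:**
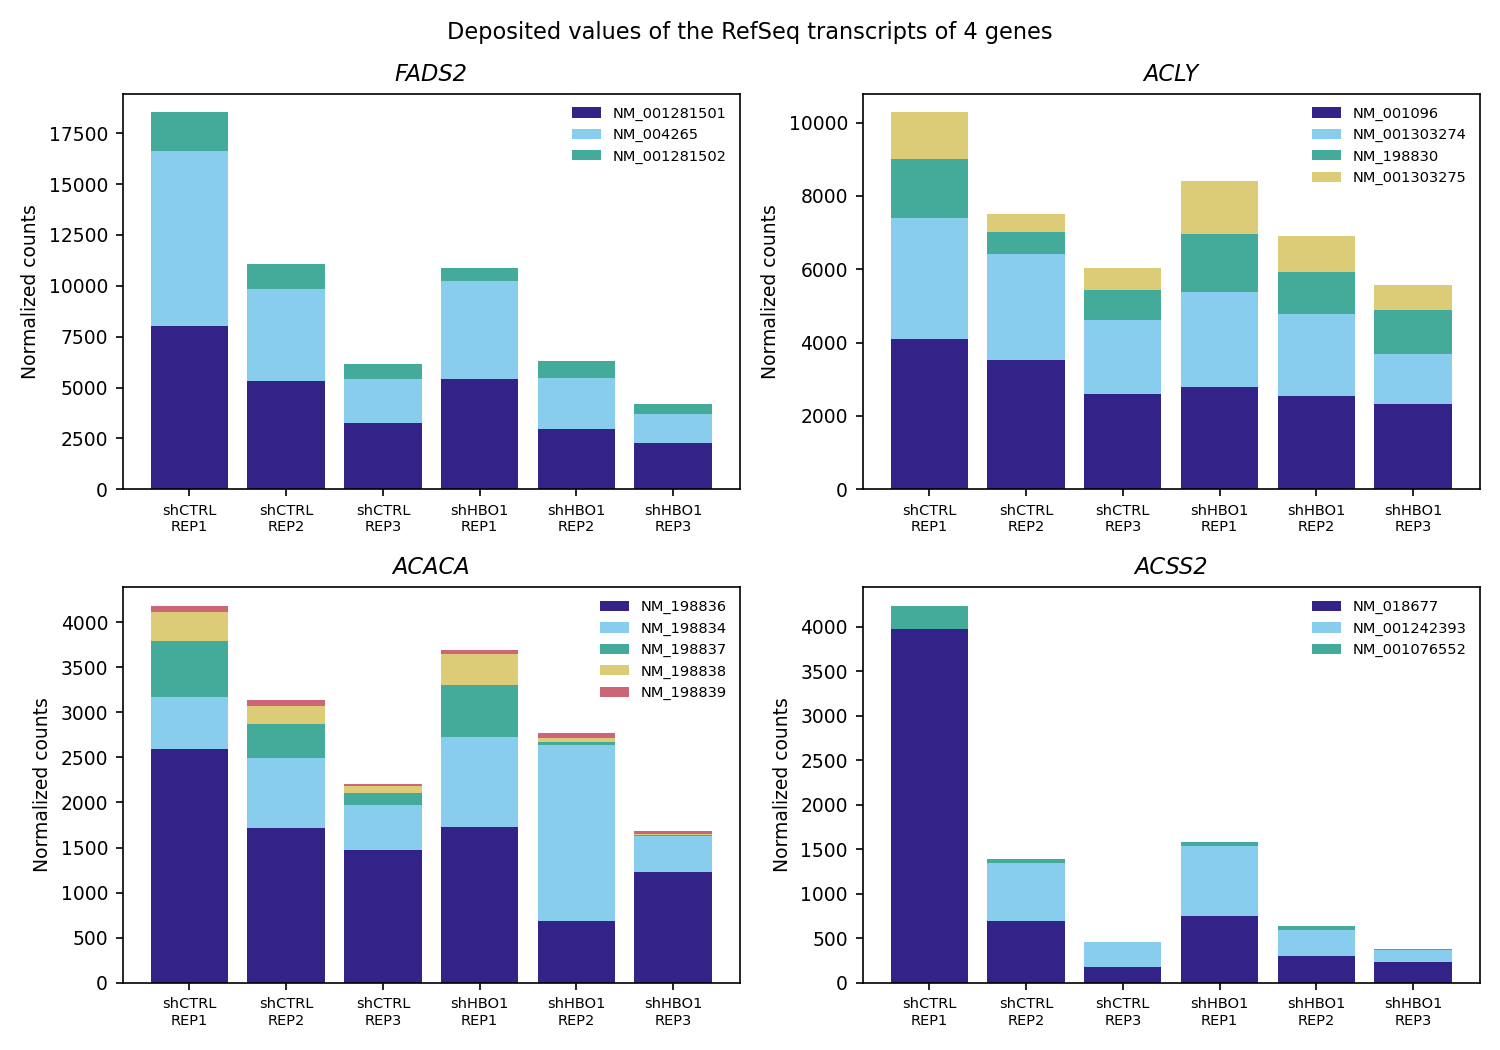
Stacked normalized counts (axis from 0) of the deposited RefSeq transcripts of FADS2, ACLY, ACACA and ACSS2 in the 6 libraries. NM_001281501 and NM_004265 make up most of FADS2 in every library, while NM_018677 makes up nearly all of ACSS2 in shCTRL REP1 and NM_198834 is the main ACACA transcript in shHBO1 REP2.

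Genes of the SREBP system that controls the enzymes were counted next. In 12 tested genes of SREBP and ChREBP control, 0 passed between the arms with or without the block. Without the REP3 libraries blocked limma called 4 as lower, SREBF1 (−0.49, adjusted p = 8.79e-06), SREBF2 (−0.41, 3.14e-05), INSIG1 (−0.57, 5.18e-07) and MLXIPL (−1.09, 0.00148). That fit has 2 pairs and called 6.95% of all tested genes as lower. On the same libraries without the block none of the 4 passed (limma adjusted p = 0.208, 0.325, 0.398 and 0.14 in that order). The unblocked fit called 1 of the 15173 tested genes. Between REP3 and REP1, 1 was higher and 4 were lower, where 7.36% of all tested genes were higher and 7.18% lower. SREBF1, the gene of the SREBP form tied to fatty acid synthesis, measured 5550, 4660 and 1582 in shCTRL and 4136, 3177 and 1482 in shHBO1. SREBF2, the form tied to cholesterol synthesis, measured 7373, 5760 and 2787 in shCTRL and 5784, 4153 and 2379 in shHBO1. INSIG1, an SREBP target that holds SREBP in the endoplasmic reticulum, measured 10229, 5902 and 1437 in shCTRL and 6733, 4057 and 1405 in shHBO1. All 3 fell between REP1 and REP3 (−1.64, −1.34 and −2.55, limma adjusted p = 0.000223, 0.000146 and 0.0001). SCAP, the sterol sensor that escorts SREBP, stayed between 3077 and 3457 in every library (0.011, limma adjusted p = 0.929). MLXIPL, which encodes ChREBP, had a log2 fold change of −0.67 between the arms and the liver X receptor NR1H2 −0.12, and neither passed with all 6 libraries.

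For the supply of citrate and reducing power, of 11 tested genes (12 listed), 5 were lower and 1 higher in REP3. Between the arms 0 passed with all libraries, and 5 were lower in the blocked fit without REP3. Over all tested genes 7.18% were lower and 7.36% higher in REP3, and 6.95% were lower in that fit. The citrate carrier SLC25A1 (−0.81, limma adjusted p = 0.00414) and the isocitrate dehydrogenase IDH1 (−1.13, 0.00177) fell between REP1 and REP3. SLC25A1 measured 4521, 3160 and 2235 in shCTRL and 3107, 2410 and 2053 in shHBO1. Between the arms PGD, the phosphogluconate dehydrogenase, had a log2 fold change of −0.18.

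Among 10 tested partners of the elongation cycle, 1 was higher in REP3 (ELOVL2, 1.06, limma adjusted p = 0.0268) and 0 were lower, and the reductase TECR had −0.14 and the elongase ELOVL7 −0.18 between the arms. Of 7 other desaturases and electron carriers, 1 was lower in REP3, the cytochrome b5 reductase CYB5R3 (−0.26, limma adjusted p = 0.039), while the sphingolipid desaturase DEGS1 had 0.29 and did not pass. SCD5, the second human stearoyl-CoA desaturase, measured 776, 709 and 517 in shCTRL and 460, 524 and 492 in shHBO1, with a log2 fold change of −0.42 that did not pass, and CYB5B had −0.15. In mitochondrial fatty acid synthesis 0 of 10 genes passed in either comparison, with LIAS at 0.11 and OXSM at 0.11 between the arms and LIPT2 at −0.46 and HSD17B8 at −0.46 between REP3 and REP1. In the blocked fit without REP3, 2 elongation partners, 2 desaturases or carriers and 0 mitochondrial genes were called as lower between the arms. The shares over all tested genes were 6.95% lower in that fit, and 7.36% higher and 7.18% lower in REP3. These lists were not tested against the members.

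Of 20 genes of acyl-CoA synthesis and glycerolipid assembly, 4 were lower and 3 higher in REP3. Between the arms 0 passed with all libraries, and 6 were lower in the blocked fit without REP3. The phosphatidate phosphatase LPIN1 (−1.52, limma adjusted p = 0.000159) and the acyl-CoA synthetase ACSL3 (−0.58, 0.00369) fell between REP1 and REP3. The synthetase ACSL1 had −0.33 and the acyltransferase AGPAT1 −0.18 between the arms. In fatty acid oxidation, 2 of 23 genes were higher and 1 lower in REP3. The carnitine carrier SLC25A20 rose (1.09, limma adjusted p = 0.00501) and the isomerase ECI2 fell (−0.56, 0.00544). Between the arms HADH (−0.28) and CPT2 (−0.18) did not pass, and 3 genes of this list were lower in the blocked fit without REP3. Of all tested genes, 7.36% were higher and 7.18% lower in REP3, and 6.95% were lower in that fit.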

How the data were processed

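RNA-seq of 6 libraries (3 shCTRL, 3 shHBO1) was analysed from a table of normalized signal that the authors deposited for 58215 RefSeq transcripts. Per the submitters' processing notes, the tools were Bowtie 1.2.1.1, SAMtools and DESeq2 and the build hg19; their roles are not stated. Within a library, deposited values are whole multiples of a fixed step (100% of them, within 0.01 read), and dividing by it gave back the reads. Names came from RefSeq (GRCh38.p14, 57191 transcripts) and GENCODE release 29 (646), and 378 transcripts stayed unnamed. Normalized counts were summed per gene, and 15173 genes with a mean of at least 10 were tested with limma-trend 3.58.1 (R 4.3.3) on log2(value + 1), which understates changes of low genes, with Benjamini-Hochberg adjustment over all tested genes and a threshold of 0.05. The fits were arm alone, arm with the replicate number as a block, and arm, number and a term for shHBO1 in REP3. edgeR 4.0.16 and DESeq2 1.42.0 on the recovered reads were alternatives. Comparison within each number was planned, with the block as an alternative fit. Deviations from the group means correlated between same-numbered libraries at 0.32, 0.19 and 0.48 across genes, all over 0.1. Beyond the shared numbers, the pairing rests on this check alone, because the labels give no day or batch. shCTRL REP2 correlated better with shHBO1 REP1 (0.21). The scripts were tested on simulated data. The members, lists and tests were chosen with earlier results of these data known. Named genes are KAT7, the members, SREBF1, SREBF2, SCAP, INSIG1, the 2 genes of each pathway list with the smallest p in each of the 2 main comparisons, and the 6 nearest profiles. The marker genes fall outside this rule. A gene that the rule names is not reported here; counts include it.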

Additional observations from a re-analysis of the deposited data

Results flagged for a closer look

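Among the members and SREBF1, SREBF2, SCAP, INSIG1 and the genes named from the pathway lists, 4 passed the limma test of whether the difference between shHBO1 and shCTRL in REP3 departed from that in REP1 and REP2. ACSS2 had an estimate of 0.97 on the log2 scale (limma adjusted p = 0.00115), INSIG1 0.54 (0.00279), IDH1 0.43 (0.0149) and SREBF1 0.39 (0.0234). In each of the 4 the shHBO1 value was nearer to or above its control in REP3. The pathway genes were named for a small p in these same libraries. The count of 4 therefore cannot be weighed against the share over all genes. Over all genes 886 (5.84%) passed this test, which rests on 1 library of each arm in REP3 and has 1 residual degree of freedom.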

How the results depend on the processing

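Between the arms, limma without a block called 1 gene under each scaling, filter, pseudocount and left-out library (lowest and highest 1 and 1), and DESeq2 19. The replicate block gave 19 genes, and edgeR with it 19; TMM scaling with the replicate block gave 18, DESeq2 with it 147, and the replicate block without the REP3 libraries 2160, on 2 pairs. SCD and FADS2 were called in all 5 of these blocked fits. Without shCTRL REP1 the estimates of ACLY (0.030), ELOVL5 (0.056) and ELOVL6 (0.0045) turned above 0, and without shHBO1 REP3 those of ACACA (0.062), ELOVL5 (0.014) and ELOVL6 (0.046). Over the left-out libraries, without a block, the estimates ran from −1.12 to −0.10 for SCD, −1.11 to −0.32 for FADS2, −0.82 to −0.029 for FASN, −1.74 to −0.14 for ACSS2, −0.43 to −0.11 for FADS1, −0.25 to −0.11 for FADS3, −0.51 to 0.062 for ACACA, −0.35 to 0.030 for ACLY, −0.14 to 0.056 for ELOVL5 and −0.23 to 0.046 for ELOVL6. Between REP3 and REP1, 503 to 5782 genes passed with a library left out and 48 on the most abundant transcript. The term for shHBO1 in REP3 called 886 genes, 580 with quantile normalization, 0 with no filter, 0 on the most abundant transcript (limma had 2596 and 1702 genes at an unadjusted p under 0.05) and 130 with DESeq2, and that of ACACA turned to 0.70 on the most abundant transcript. The cause was not tested. DESeq2 gave no adjusted p in that test for ACSS2, ACACA, FADS3 and ELOVL6, the 4 members with the lowest means.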
